A study of Mus musculus with 34 samples.

Results

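The genes described here make sterols and fatty acids. They were chosen by name, as 31 of the 52661 genes of the expression table, and fall into a sterol branch of 18 genes, 5 genes for regulation and sterol transport, and a fatty acid branch of 8 genes. They were followed in N2A (Neuro-2a) cells, a mouse neuroblastoma line grown in medium with 10% fetal bovine serum and used for a screen of compounds that change the splicing of microexons, which are very short exons. Poly(A) RNA was sequenced after 24 h with each of 27 small molecules or with solvent alone, always at 0.4% DMSO, and all groups share that solvent and that single line. The 34 libraries comprised 3 of DMSO, 2 each of 4 histone deacetylase (HDAC) inhibitors, and 1 of each of the other 23 compounds. The HDAC inhibitors were Vorinostat at 2.5 µM, CI-994 at 5 µM, and BRD4884 and BRD6688 at 10 µM each. The kinase inhibitors were Trametinib (MEK1/2) and NVP-AEW-541 (IGF1R) at 1 µM, SCH-772984 (ERK1/2), Crenolanib (PDGFR) and MK-1775 (WEE1) at 2 µM, GNF-5837 (TRK) at 0.5 µM and A-443654 (AKT1) at 0.25 µM. 5-azacytidine, a DNA methyltransferase inhibitor, was used at 5 µM. The screening molecules were BTB12021 and SPB00858 at 20 µM, T5635931, T5758020, T5963258, T5985871 and a ChemBridge compound (shown with its catalogue number in the plots) at 6.7 µM, S02045, AW00693 and JFD00822 at 5 µM, RDR00572, BTBS00065, SEW06315 and RH01954 at 2.5 µM, and BTB13120 at under 1 µM. The study had classed 17 of the compounds as activators and 10 as inhibitors of microexon splicing, so the compounds were picked for an effect in these cells, not for any effect on lipid genes.

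Cells build cholesterol from acetyl-CoA through the mevalonate pathway and a chain of sterol-modifying enzymes, and build fatty acids from the same precursor. The transcription factors SREBP-1 and SREBP-2, encoded by Srebf1 and Srebf2, switch on the genes of both routes. When sterols are plentiful the Insig proteins hold the SREBP precursors in the endoplasmic reticulum, and when sterols are low the precursors are carried to the Golgi, cut, and released to the nucleus. SREBP-2 is known mainly for the sterol genes and SREBP-1 mainly for the fatty acid genes, and both act beside NF-Y, a factor that binds the letters CCAAT.

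The promoters of the members differed between the branches in those letters. RefSeq promoter sequences of GRCm38.p6, from 250 bases before to 50 bases after a start, were at hand for 24 of the 31 members. Fdps, Fdft1, Sqle, Stard4, Scd1, Scd2 and Fads1 had none and were not searched. Searched on both strands, CCAAT lay in the promoter of 14 of 15 sterol branch genes (93.3%), of 4 of 4 regulators and of 2 of 5 fatty acid branch genes (40.0%), against 41.1% of all 27025 genes with a promoter in the table. Acat2 was the sterol branch gene without it. The core of the classical sterol regulatory element, TCACNCCAC, lay in the promoter of Hmgcs1 and of no other of these 24 members, against 1.44% of all genes. The E-box CACGTG lay in those of Hsd17b7, Sc5d, Dhcr7 and Insig1, against 8.09% of all genes. A match is a description of letters in a window and not a measured site. Stretches upstream of the start are shown for 5 members on which the results below turn, read 5′ to 3′ on the gene's strand, with matches to any of these motifs on either strand in capitals. In the Fasn stretch, the last run of capitals holds a pair of overlapping matches, 1 on each strand. The Hmgcs1 stretch is chr13:119690204-119690320 (plus strand), Lss is chr10:76531533-76531557 (plus), Msmo1 is chr8:64733619-64733684 (minus), Insig2 is chr1:121332604-121332645 (minus) and Fasn is chr11:120824592-120824647 (minus).
Hmgcs1: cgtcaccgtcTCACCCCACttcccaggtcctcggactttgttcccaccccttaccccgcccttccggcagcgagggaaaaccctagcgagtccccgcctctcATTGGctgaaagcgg
Lss: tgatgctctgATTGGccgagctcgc
Msmo1: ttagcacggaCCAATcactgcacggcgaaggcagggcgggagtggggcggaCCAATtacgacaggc
Insig2: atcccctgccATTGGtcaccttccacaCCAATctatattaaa
Fasn: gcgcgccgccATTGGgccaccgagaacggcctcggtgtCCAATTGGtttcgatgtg

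2 measures of expression were used. The authors' table gave 1 merged RPKM value (reads per kilobase of transcript, scaled to depth) per condition, which allows genes to be compared with each other but has no replicate error. The per-library splicing table gave the reads over exon-exon junctions beside each intron, and their sum over a gene, scaled to the library's total of such reads (RPM), gave a value in every library for 29 of the 31 members, all but Hmgcs1 and Fdps. Libraries held from 17702718 junction reads in a Vorinostat library to 40613524 in a DMSO library, and the other DMSO libraries held 35566944 and 20013522. The coefficient of variation over the 3 DMSO libraries was 4.87% for the median member and under 10% for 28 of 29, with 17.8% for Acat2, which has 1 intron in the table. The scales of both measures differ. The median RPKM ratio to DMSO over all genes above 5 RPKM was below -0.1 on the log2 scale for 14 of the 27 compounds, down to -0.44 for CI-994, while the median junction ratio was between -0.18 and 0.13. For some compounds the median of all genes, or values relative to it, are therefore given beside the RPKM ratios. All log2 RPKM ratios carry a pseudocount of 0.5 RPKM, which understates the change of low genes.

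In DMSO all members but 1 were above 5 RPKM. The fatty acid branch held the highest and the lowest level, with Scd2, a stearoyl-CoA desaturase, at 394 RPKM and Acly, which makes cytosolic acetyl-CoA from citrate, at 389.8 RPKM, against 0.56 RPKM for Scd1, the desaturase known from liver and fat. In the sterol branch the levels ran from 16.6 RPKM for Tm7sf2 and 17.3 RPKM for Mvk, the mevalonate kinase, to 137 RPKM for Idi1, which isomerises the first isoprenoid unit, with Dhcr7, the last-step reductase, at 122 RPKM and Fdps, the farnesyl diphosphate synthase, at 121 RPKM. Srebf2 stood at 109 RPKM and Srebf1 at 88.0 RPKM, Insig1 at 48.8 RPKM, Stard4, a cytosolic sterol carrier, at 37.7 RPKM and Insig2 at 18.9 RPKM. The neuronal and neuroblastoma markers Tubb3, Stmn2, Gap43, Mycn and Hand2 were above 5 RPKM in DMSO and Nefl and Nefm were at 0.01 RPKM each. The 7 markers of blood, endothelial, glial, liver, fat and fibroblast cells summed to 3.14 RPKM, 6 of them under 1 RPKM and Alb at 0, and to 1.93 to 7.25 RPKM in the compounds with 1 library.

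The sterol branch stood above the fatty acid branch with most compounds. The median log2 RPKM ratio of the sterol branch was above that of the fatty acid branch in 22 of 27 compounds, also by junction reads in 22 of 27, and the sign of the difference was the same by both measures in 27 of 27. The difference ran from -0.14 with the ChemBridge compound to 0.49 with T5985871, with a median of 0.21. Its spread over the 3 DMSO libraries, by junction reads, was 0.066 (SD). It was above 0.3 for 7 compounds, namely T5985871, BTB12021 (0.47), Crenolanib (0.45), Trametinib (0.42), GNF-5837 (0.38), Vorinostat (0.37) and SCH-772984 (0.33), and below -0.3 for none. Since each compound was set against the same DMSO value, these differences are not independent of each other. The sterol median was above 0.3 for 5 compounds and below -0.3 for 6, and the fatty acid median was above 0.3 for none and below -0.3 for 11. The fatty acid medians include Scd1, at 0.56 RPKM in DMSO, whose ratios the pseudocount understates.

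**Figure D1:**
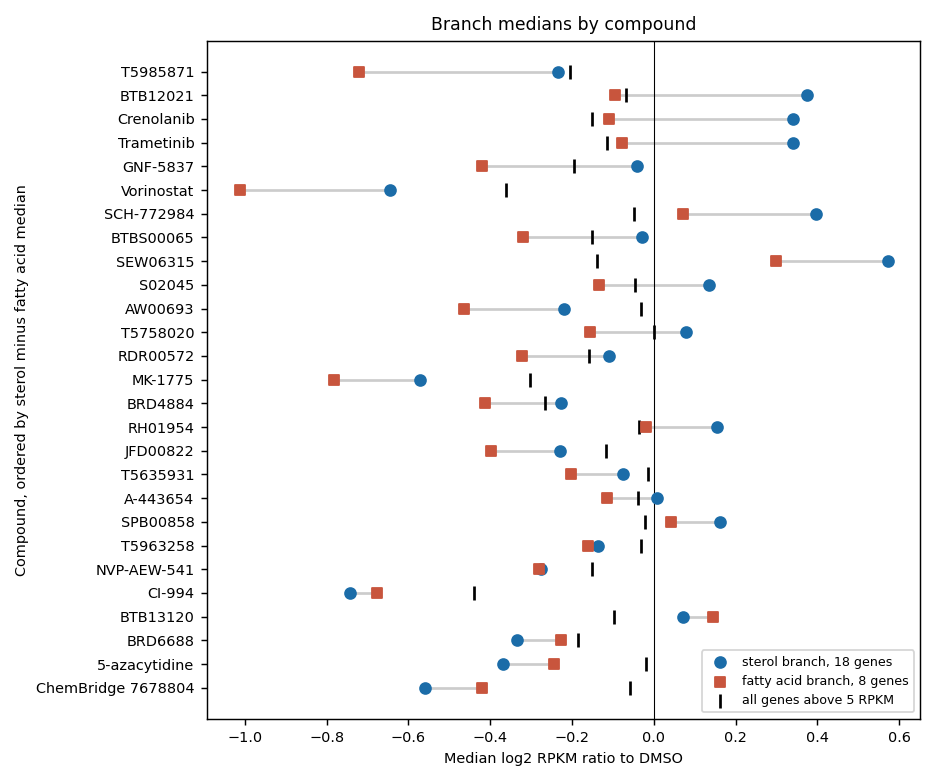
Median log2 RPKM ratio to DMSO (x axis) of the 18 sterol branch genes (circles), the 8 fatty acid branch genes (squares) and all genes above 5 RPKM (ticks) in each of the 27 compounds (y axis, ordered by the difference of the branches). The sterol circle lies to the right of the fatty acid square in 22 compounds, and SEW06315 has the highest values of both.

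**Figure D2:**
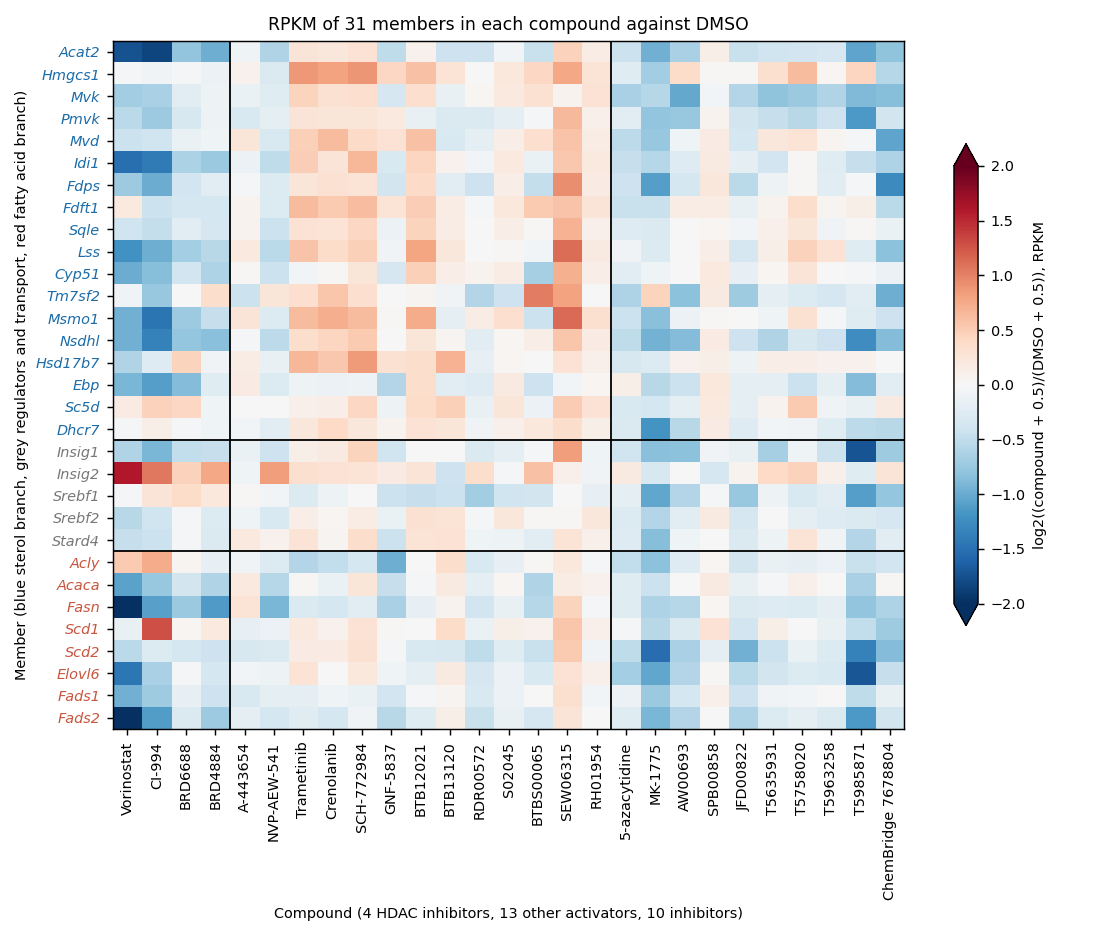
Log2 RPKM ratio to DMSO (colour, red higher and blue lower, saturated at 2 in size) of the 31 members (rows, by branch) in the 27 compounds (columns). Fasn and Fads2 with Vorinostat are the lowest cells, at -2.27 and -2.25, and Insig2 with Vorinostat is the highest, at 1.60.

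With the HDAC inhibitors, the compounds with replicates, part of the sterol branch and Fasn fell and Insig2 rose. The junction reads were tested with limma over the 11 replicated libraries and 10265 genes, with Benjamini-Hochberg adjusted p under 0.05 as a call. With Vorinostat 15 members fell and 6 rose, against 36.5% and 40.6% of all genes tested. With CI-994 13 fell and 7 rose, against 37.8% and 40.3% of all genes. With BRD6688 9 fell and 9 rose, against 26.3% and 40.5%, and with BRD4884 8 fell and 6 rose, against 21.1% and 40.6%. Each of these counts is out of 29 members. Scd1 passed the filter of 50 mean reads through CI-994, with a mean of 55.6 over the 11 libraries and of 19 in DMSO. In the sterol branch, 9 of 16 members fell and 4 rose with Vorinostat, 10 fell and 2 rose with CI-994, 7 fell and 4 rose with BRD6688, and 5 fell and 3 rose with BRD4884. In the fatty acid branch, 5 of 8 fell and 1 rose with Vorinostat, 3 fell and 3 rose with CI-994, 2 fell and 2 rose with BRD6688, and 3 fell and 1 rose with BRD4884. The median log2 fold changes of the sterol branch, the fatty acid branch and all genes were -0.40, -0.66 and 0.04 with Vorinostat, -0.38, -0.09 and 0.03 with CI-994, -0.17, 0.02 and 0.11 with BRD6688, and 0.02, -0.07 and 0.13 with BRD4884. Without replicate B of BRD6688 the members called up with that compound numbered 5 in place of 9. The split of all genes depends on the scaling: for BRD4884 it was 4167 up and 2171 down with RPM but 2960 up and 3695 down with median-of-ratios size factors, under which 3 members rose and 13 fell, and for BRD6688 it was 4156 and 2703 with RPM but 3286 and 3548 with those factors. By merged RPKM, 16 of 30 members above 5 RPKM were lower by over 1.5-fold with Vorinostat, 17 with CI-994, 7 with BRD6688 and 7 with BRD4884, against 39.1%, 43.3%, 23.9% and 23.7% of all genes.

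4 sterol branch genes fell in all 4 comparisons, with the libraries of each compound below every DMSO library. The comparisons share the same DMSO libraries and are not independent. Of all genes, 36.5%, 37.8%, 21.1% and 26.3% were called lower with Vorinostat, CI-994, BRD4884 and BRD6688. The share of all genes called in all 4, lower or higher, was not counted. Whether this number of sterol genes is unusual was therefore not tested. Idi1 had 35.2, 31.5 and 34.7 junction RPM in DMSO. It had 19.4 and 14.7 with Vorinostat, 14.3 and 13.2 with CI-994, 23.5 and 27.4 with BRD4884, and 21.9 and 20.2 with BRD6688. Its log2 fold changes (on the scale of RPM plus 1, as all limma values here) were -0.96 ± 0.13 (SE, limma adjusted p = 8.58e-06), -1.24 ± 0.13 (adjusted p = 6.33e-07), -0.40 ± 0.13 (adjusted p = 0.0144) and -0.66 ± 0.13 (adjusted p = 0.000445). Lss, the lanosterol synthase that closes the sterol rings, had 202, 201 and 209 in DMSO against 113 and 99.8 with Vorinostat, 120.4 and 115 with CI-994, 152 and 138 with BRD4884, and 123 and 125 with BRD6688. Its changes ran from -0.94 (limma adjusted p = 3.89e-08) with Vorinostat to -0.50 (adjusted p = 5.06e-05) with BRD4884. Nsdhl, which takes part in removing the C4 methyl groups of the sterol, had 74.0, 80.3 and 80.9 in DMSO and was lowest with CI-994, at 35.0 and 37.9, a change of -1.08 ± 0.10 (limma adjusted p = 1.77e-07). Nsdhl changed by -0.73, -0.68 and -0.55 with Vorinostat, BRD6688 and BRD4884. Cyp51, the lanosterol demethylase, fell by 0.61, 0.60, 0.31 and 0.24 on the log2 scale with CI-994, Vorinostat, BRD4884 and BRD6688.

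3 further sterol genes fell with 3 of the 4 compounds. Msmo1, the C4-methyl sterol oxidase, had 125, 131 and 140.2 junction RPM in DMSO and 72.4 and 66.3 with CI-994, a change of -0.92 ± 0.11 (limma adjusted p = 2.32e-06). It had 103 and 75.5 with Vorinostat and 95.5 and 95.3 with BRD6688, where it fell by 0.58 and 0.46, and 123 and 127 with BRD4884, inside or near the DMSO range, where it was not called (-0.08, limma adjusted p = 0.524). Acat2, the acetoacetyl-CoA thiolase of the first step, fell by 0.85, 0.69 and 0.52 with Vorinostat, CI-994 and BRD4884. By RPKM Acat2 was the lowest member with CI-994, at 14.7 against 53.9 RPKM in DMSO. Ebp, the sterol isomerase, fell by 0.50, 0.47 and 0.44 with Vorinostat, CI-994 and BRD6688, with adjusted p of 0.0212, 0.0284 and 0.0463 by limma, and each of these calls was lost under 2 or more of the alternative settings. By RPKM Ebp was the lowest member with BRD6688, at 13.4 against 24.8 RPKM.

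Other sterol genes went the other way. Sc5d, the sterol C5 desaturase, had 46.3 to 48.0 junction RPM in DMSO and rose by 0.46, 0.40 and 0.22 on the log2 scale with CI-994, Vorinostat and BRD6688. The last of these calls held in 5 of 7 alternative settings with all libraries. Tm7sf2, a sterol C14 reductase, had 8.57, 9.39 and 9.54 in DMSO against 22.9 and 22.4 with BRD4884, 14.7 and 21.4 with BRD6688, and 22.2 and 16.6 with Vorinostat. It rose by 1.22 ± 0.16 with BRD4884 (limma adjusted p = 1.27e-05), 0.88 with BRD6688 and 0.99 with Vorinostat, and with CI-994 it was not called (0.14). Its RPKM with Vorinostat was 15.8 against 16.6 in DMSO, and its log2 RPKM ratio with BRD6688 was 0.01. The calls with Vorinostat and BRD6688 are thus not seen in that measure. After centring on the median of all genes the ratios were 0.29 and 0.20. With BRD4884 the ratio was 0.36 before centring. Dhcr7 was called higher with all 4 compounds (0.52, 0.42, 0.36 and 0.20 with CI-994, Vorinostat, BRD4884 and BRD6688), but its RPKM lay between 115 and 132 against 122 in DMSO, and median-of-ratios scaling ended the calls with BRD4884 (0.14, limma adjusted p = 0.106) and BRD6688 (0.06, adjusted p = 0.48). Hsd17b7, a sterol ketoreductase, fell by 0.36 with Vorinostat and rose with BRD6688 (0.45, limma adjusted p = 0.000533) and BRD4884 (0.28, adjusted p = 0.0142), the last with a p of 0.617 under that scaling. Of the remaining sterol members with junction reads, Mvk fell with Vorinostat and CI-994, Sqle, the squalene epoxidase, with CI-994 and BRD6688, and Pmvk, the phosphomevalonate kinase, with CI-994. Fdft1, the squalene synthase, rose with Vorinostat (0.42) and Mvd, the mevalonate diphosphate decarboxylase, was called in none. Hmgcs1, which makes HMG-CoA and has RPKM values only, stood at 98.9 to 105 RPKM in the 4 compounds against 107 in DMSO, while Fdps was at 60.9 RPKM with CI-994, 72.8 with Vorinostat, 92.8 with BRD6688 and 105 with BRD4884 against 121.

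Among the regulators, Insig2 rose with every HDAC inhibitor. It had 12.2, 12.6 and 13.04 junction RPM in the DMSO libraries. It had 43.9 and 47.0 with Vorinostat, 29.3 and 28.7 with CI-994, 31.2 and 26.5 with BRD4884, and 24.7 and 23.02 with BRD6688, so that no treated library came near the DMSO range. The log2 fold changes were 1.77 ± 0.10 (SE, limma adjusted p = 1.52e-09), 1.14 (adjusted p = 1.57e-07), 1.13 (adjusted p = 4.41e-07) and 0.87 (adjusted p = 6.65e-06). By RPKM Insig2 was the highest member with Vorinostat, BRD6688 and BRD4884, at 58.2, 26.3 and 32.5 RPKM against 18.9. Its paralog Insig1, itself a known SREBP target, was called in none of the 4 comparisons, with log2 fold changes of -0.20 to 0.05. Srebf1 rose by 0.38, 0.35 and 0.24 with BRD4884, BRD6688 and CI-994, and median-of-ratios scaling left only the call with BRD6688. Srebf2 fell with Vorinostat (-0.19) and was called higher with BRD6688 (0.16). The call with BRD6688 held in 5 of 7 alternative settings with all libraries. Its log2 RPKM ratio there was -0.04 (0.145 after centring on the median of all genes). Stard4 was called in none.

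The fatty acid branch held the deepest falls. Fasn, the multi-enzyme that assembles palmitate, had 2054, 2098 and 1900.0 junction RPM in DMSO. It had 500 and 527 with Vorinostat, 1179 and 1150.2 with CI-994, 1106 and 1100.2 with BRD4884, and 1316 and 1341 with BRD6688, all below the DMSO libraries. The changes were -1.97 ± 0.06 (SE, limma adjusted p = 2.81e-12), -0.79 (adjusted p = 2.4e-08), -0.87 (adjusted p = 2.61e-08) and -0.60 (adjusted p = 1.34e-06), and RPKM fell on the same side, at 23.8, 54.4, 52.6 and 69.1 against 116. Fads2, the delta-6 desaturase, had 426, 432 and 422 in DMSO against 96.8 and 122 with Vorinostat, 241 and 254 with CI-994, and 318 and 317 with BRD4884, with changes of -1.96 ± 0.08 (limma adjusted p = 6.38e-11), -0.78 and -0.43. With BRD6688 Fads2 was at 378 in both libraries and was not called (-0.18). Acaca, the acetyl-CoA carboxylase, fell with all 4 compounds, by 0.79 with Vorinostat, 0.31 with CI-994, 0.28 with BRD6688 and 0.27 with BRD4884. Elovl6, which lengthens palmitate to stearate, fell with Vorinostat (-1.20 ± 0.13, limma adjusted p = 1.21e-06), where its libraries had 6.04 and 6.71 against 14.5, 16.8 and 16.7, and was called with none of the other 3.

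Acly, the enzyme upstream of both branches, rose with 2 of the compounds that lowered Fasn. It had 2475, 2624 and 2436 junction RPM in DMSO against 4820.1 and 4678 with CI-994 and 4430 and 4234 with Vorinostat, changes of 0.92 ± 0.06 (SE, limma adjusted p = 8.68e-09) and 0.79 ± 0.06 (adjusted p = 4.27e-08). Its RPKM was 653 and 562 with these against 389.8 in DMSO. With BRD4884 (2839 and 2564) and BRD6688 (2612 and 2664) it was not called. Scd1 stayed low but had 7.02 and 8.001 junction RPM with CI-994 against 0.55 to 0.62 in DMSO, and 2.08 against 0.56 RPKM. With BRD4884 it was at 1.76 and 0.99. Since Scd1 passed the filter through CI-994, its calls with these compounds are no independent support, and without them, under a minimum of 200 mean reads, 6 members in place of 7 rose with CI-994 and 5 in place of 6 with BRD4884. Scd2 had 1775 and 1798 with CI-994 against 1062, 1124 and 1128 in DMSO, a change of 0.69 ± 0.08 (limma adjusted p = 1.45e-06), yet its RPKM with CI-994 was 328 against 394 in DMSO, 0.17 above the median of all genes on the log2 scale. Scd2 was called higher with BRD6688 too (0.32), where its RPKM was 308, and this call is the only one of the members' 73 that stood on the other side of zero by RPKM also after centring on the median of all genes. Before centring, 9 of the 73 did, all of them called higher by junction reads. Fads1, the delta-5 desaturase, fell with Vorinostat (-0.52) and was called higher with BRD6688 (0.26). The call with BRD6688 held in 6 of 7 alternative settings with all libraries. Its log2 RPKM ratio there was -0.17 (0.02 after centring).

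**Figure D3:**
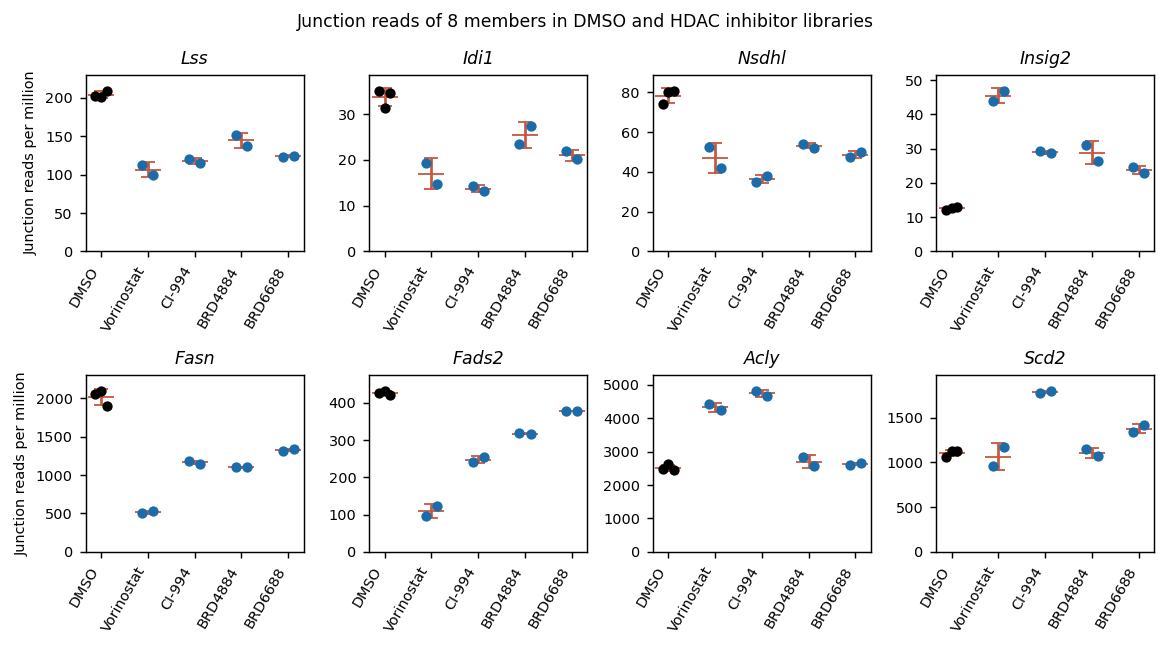
Junction RPM (y axes, from 0) of 8 members in the DMSO libraries (black) and the libraries of the 4 HDAC inhibitors (blue), each point 1 library, with mean and SD in red (n = 3 for DMSO, n = 2 for each compound). Lss, Idi1, Nsdhl, Fasn and Fads2 lie below DMSO in all 8 treated libraries and Insig2 above it, while Acly is raised with Vorinostat and CI-994.

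Neighbouring lipid genes in the junction test, from lists drawn up for this account, mostly rose with the HDAC inhibitors, against 40.3 to 40.6% of all genes. Of 11 tested genes of other lipid synthesis steps, 8 rose and 1 fell with both Vorinostat and CI-994, 8 rose and 0 fell with BRD6688, and 9 rose and 0 fell with BRD4884. Hacd1, of the same list, was not in that test and was lower by RPKM with all 4 compounds. It was at 12.6, 16.2, 28.2 and 23.4 RPKM with Vorinostat, CI-994, BRD4884 and BRD6688 against 62.1 in DMSO. Acss2, which makes acetyl-CoA from acetate, rose by 1.94, 1.42, 1.12 and 0.95 with Vorinostat, CI-994, BRD4884 and BRD6688, and Lpin1, a phosphatidate phosphatase, rose by 2.33 and 2.32 with Vorinostat and CI-994. Fatty acid oxidation genes rose in 7, 6, 7 and 5 of 7 tested with Vorinostat, CI-994, BRD4884 and BRD6688, and none of these 7 fell. Among them were Cpt1a, the carnitine palmitoyltransferase of entry into mitochondria (1.20 and 1.66 with Vorinostat and CI-994) and Acadl, a long-chain dehydrogenase (1.60 and 1.16). Hadhb, of the same list, was not in the junction test and was lower by RPKM. It was at 160.8, 81.3, 128.5 and 99.0 RPKM with Vorinostat, CI-994, BRD4884 and BRD6688 against 171.7 in DMSO. Of 11 tested genes for sterol sensing and handling, 7, 7, 9 and 7 rose and 3, 1, 1 and 0 fell with Vorinostat, CI-994, BRD4884 and BRD6688. Soat1, which esterifies cholesterol, rose by 3.56 and 3.80 and Abca1, a cholesterol exporter, by 3.26 and 3.22 with Vorinostat and CI-994, while Mbtps2, the protease that makes the final cut of SREBP, fell by 0.59 and 0.60. Genes that lead from the mevalonate route to other products were fewer: of 5 tested, 2 fell with Vorinostat and 3 with CI-994, against 36.5% and 37.8% of all genes, with Pdss1, a ubiquinone side chain enzyme, at -1.77 and -1.41, and 1 rose and 1 fell with each of BRD4884 and BRD6688. With these compounds markers of other cell types also moved. Col1a1, Pecam1 and Mbp, the 3 of 7 that passed the filter, rose with all 4 by junction reads. Col1a1 (0.02 RPKM in DMSO and 11.7 with CI-994) passed the filter through the groups where it was high, and Pecam1 was at 0.79 RPKM in DMSO. Mbp was at 1.85, 2.6, 2.35 and 2.05 RPKM with Vorinostat, CI-994, BRD4884 and BRD6688 against 1.93 in DMSO. Its rise with Vorinostat is thus not seen in RPKM. The 7 markers summed to 5.43 to 19.4 RPKM against 3.14 in DMSO. Markers of the cells themselves moved in both directions: Tubb3 fell with Vorinostat, CI-994 and BRD6688 (-1.43, -0.55 and -0.54), Gap43 fell with Vorinostat (-0.39) and rose with BRD4884 (0.37), and Hand2 and Mycn rose with all 4, by 0.91 and 0.67 with Vorinostat and 1.22 and 1.69 with CI-994. In bulk RNA, fewer cells of a type and less RNA per cell cannot be told apart, and the part of these shifts in the results was not tested.

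BRD4884 and BRD6688 were the pair used at the same dose and time, and the study describes both as derivatives of CI-994 and as kinetically selective for HDAC2. Between them 3 of 29 members were higher and 4 lower with BRD4884 (limma, adjusted p under 0.05), against 21.8% and 12.3% of all genes, and only this 1 pair of compounds was compared. With median-of-ratios size factors the split of all genes was 1679 higher and 1859 lower in place of 2237 and 1260. The 3 higher were sterol genes and the 4 lower were fatty acid genes. Msmo1 had 123 and 127 junction RPM with BRD4884 and 95.5 and 95.3 with BRD6688, a log2 difference of 0.38 ± 0.12 (SE, limma adjusted p = 0.0246). Pmvk had 119 and 118 against 81.3 and 95.2 (0.43 ± 0.13, limma adjusted p = 0.0233), and Lss 152 and 138 against 123 and 125 (0.22 ± 0.08, adjusted p = 0.0492). Fasn had 1106 and 1100.2 with BRD4884 against 1316 and 1341 with BRD6688, a difference of -0.27 ± 0.06 (limma adjusted p = 0.00918). Scd2 had 1144 and 1067 against 1339 and 1413 (-0.32, limma adjusted p = 0.0137), Fads1 157 in both against 188 and 204 (-0.32, adjusted p = 0.0111) and Fads2 318 and 317 against 378 in both (-0.25, adjusted p = 0.0447). In all 7 genes the libraries of one compound did not overlap those of the other. These genes were picked by their adjusted p, so this is no separate support, and the share of all genes without overlap was not counted. For members not called, the 95% interval of the log2 difference was -0.11 to 0.18 for Acly, -0.19 to 0.22 for Acaca, -0.22 to 0.23 for Fdft1 and -0.18 to 0.11 for Srebf2. It lay off 0 at 0.09 to 0.95 for Ebp and 0.02 to 0.50 for Insig2, whose limma adjusted p were 0.0578 and 0.0822. Acat2, a sterol gene, went the other way, at -0.43 (-0.85 to -0.01, limma adjusted p = 0.099). With the replicate letter as a block 1 member was higher and 3 lower. Without replicate A of BRD4884 0 were higher and 1 lower, without its replicate B 0 and 0, without replicate A of BRD6688 0 and 1, and without its replicate B 2 and 0.

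**Figure D4:**
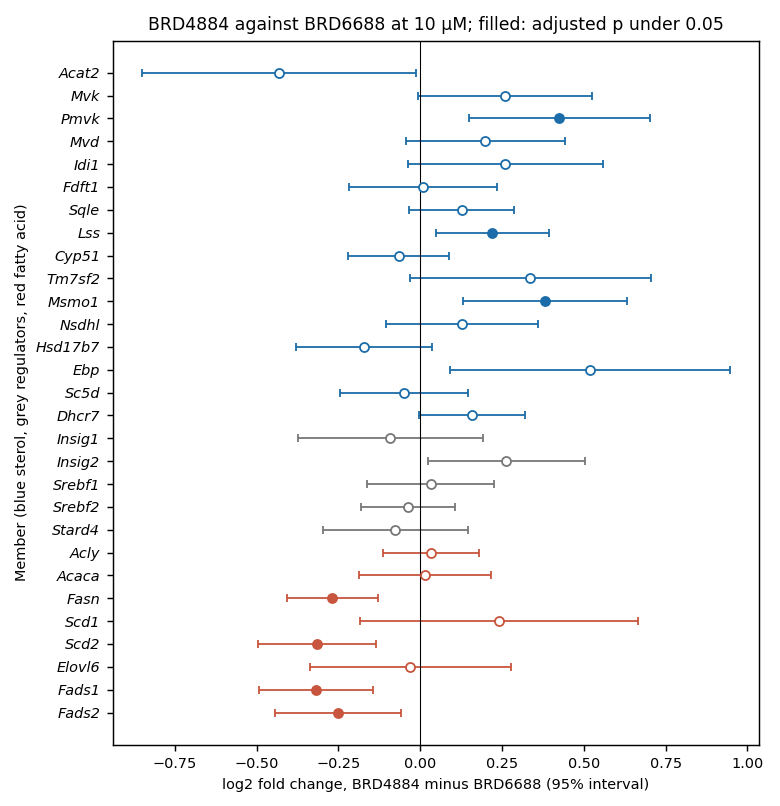
Log2 difference of junction reads (x axis, BRD4884 minus BRD6688, bars 95% intervals from limma, n = 2 libraries each) for 29 members (y axis, sterol blue, regulators grey, fatty acid red). The 7 filled points had an adjusted p under 0.05, with the 3 sterol genes to the right of 0 and the 4 fatty acid genes to its left.

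The remaining 23 compounds had 1 library each, so their values carry no replicate check and no p. Scd1, counted in the fatty acid branch throughout, had 24, 22 and 11 junction reads in the DMSO libraries. In these 23 libraries it had from 3 reads with the ChemBridge compound to 42 with SCH-772984. SEW06315 stood out with the highest sterol values. Its sterol median was 0.57 and its fatty acid median 0.30 on the log2 RPKM scale, with all genes at -0.14. By RPKM 9 of 30 members were over 1.5-fold higher, against 4.02% of all genes. In junction reads 15 of 16 sterol members and 8 of 8 fatty acid members were above all 3 DMSO libraries, against 31.4% of all genes. Msmo1 led, at 177 RPKM against 80.1 in DMSO and at 314 junction RPM against 125, 131 and 140.2. Lss was at 379 junction RPM against 201 to 209 in DMSO (102 against 46.5 RPKM), Cyp51 at 461 against 245 to 259, and Fdps at 231 against 121 RPKM. Insig1 was also higher, at 32.2 junction RPM against 19.1 to 20.6, as were 3 of 5 regulators in all, while Insig2 (11.97) and Srebf1 (319) were below every DMSO library. Fasn, at 2997 against 1900.0 to 2098, and Scd2, at 1665 against 1062 to 1128, were above every DMSO library too. Ebp, at 30.04 against 29.4 to 30.7 junction RPM, was the lowest of the 31 members by RPKM ratio (-0.06).

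With 4 compounds the sterol branch was higher than in DMSO while the fatty acid branch held members on both sides of it. They were the MEK1/2 inhibitor Trametinib, the ERK1/2 inhibitor SCH-772984, the PDGFR inhibitor Crenolanib and BTB12021, with sterol medians of 0.34, 0.40, 0.34 and 0.38 and fatty acid medians of -0.08, 0.07, -0.11 and -0.09 on the log2 RPKM scale. In junction reads 15, 15, 16 and 15 of 16 sterol members were above all DMSO libraries, against 41.1%, 39.5%, 47.4% and 40.1% of all genes. Of the 8 fatty acid members, 4, 4, 2 and 2 were above all DMSO libraries and 4, 3, 5 and 3 below all of them, against 37.9%, 34.7%, 34.2% and 32.9% of all genes below. With Trametinib, Acaca and Elovl6 (each 1.05-fold of DMSO) were barely above the highest DMSO library and Scd1 rested on 38 reads. Scd2 (1.26-fold) was clearly above it. Scd1 was also among the members above DMSO with SCH-772984 (42 reads) and BTB12021 (20 reads), and among those below with Crenolanib (5 reads). With BTB12021 the other member above was Fads1 (1.11-fold of DMSO). Past 1.5-fold by RPKM were 4 members with Trametinib (5.16% of all genes), 5 with SCH-772984 (2.37%), 3 with Crenolanib (5.84%) and 3 with BTB12021 (2.48%), all of them sterol genes. Hmgcs1 was the highest member with Trametinib, SCH-772984 and Crenolanib, at 195, 196 and 186 RPKM against 107. Hsd17b7 had 106, 99.2 and 119 junction RPM with these against 60.2 to 67.6 in DMSO, and Msmo1 had 210.4, 207 and 248. Acly was the lowest member by RPKM ratio with the same 3 compounds and had 1858, 2020.2 and 2043 junction RPM against 2436 to 2624 in DMSO. With BTB12021 Acly (2563) lay inside the DMSO range, Lss was the highest by RPKM, at 80.9 against 46.5, and Srebf1 the lowest, at 64.0 against 88.0. These compounds differed in dose, so no ranking among them was made.

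GNF-5837, the TRK inhibitor, had a sterol median of -0.04 and a fatty acid median of -0.42. Acly was at 198 against 389.8 RPKM and 1450.0 against 2436 to 2624 junction RPM, the lowest Acly value of the 27 compounds by both measures, and Hmgcs1 was the highest member, at 142 against 107 RPKM. 2 of 30 members, Acly and Fasn, were over 1.5-fold lower, against 20.1% of all genes. With NVP-AEW-541, the IGF1R inhibitor, Insig2 was the highest member and Fasn the lowest: Insig2 was at 34.04 against 18.9 RPKM and 22.3 against 12.2 to 13.04 junction RPM, and Fasn at 61.6 against 116 RPKM and 1248 against 1900.0 to 2098. BTBS00065 had the highest Tm7sf2 by RPKM, at 34.1 against 16.6 RPKM (22.8 against 8.57 to 9.54 junction RPM), and its lowest member was Cyp51, at 47.7 against 75.7 RPKM. With RDR00572 the lowest member was Srebf1, at 54.4 against 88.0 RPKM and 273 against 333 to 369 junction RPM, and the highest Insig2, at 24.2 RPKM.

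T5985871 had the largest gap between the branches. Its fatty acid median was -0.72 and its sterol median -0.23, with all genes at -0.21. All 8 fatty acid members, all 5 regulators and 11 of 16 sterol members were below the 3 DMSO libraries in junction reads, against 56.2% of all genes, and 13 of 30 members were over 1.5-fold lower by RPKM, against 25.3%. The 8 include Scd1, which rested on 12 reads there. Insig1 was the lowest member of all, at 14.4 against 48.8 RPKM and 8.38 against 19.1 to 20.6 junction RPM. Elovl6 was at 7.56 against 25.96 RPKM, Scd2 at 493 against 1062 to 1128 junction RPM, Fasn at 1074 against 1900.0 to 2098 and Srebf1 at 159 against 333 to 369. In the sterol branch Pmvk, at 44.8 against 103 to 105 junction RPM, Nsdhl, at 35.1 against 74.0 to 80.9, and Mvk, at 16.2 against 34.6 to 36.4, were low, while Hmgcs1 was the highest member, at 144 against 107 RPKM, and Mvd (114) and Sqle (173) lay inside the DMSO range of 110.2 to 122 and of 157 to 174.

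MK-1775, the WEE1 inhibitor, was low in both branches and the regulators. Its medians were -0.57 for the sterol branch, -0.84 for the regulators and -0.78 for the fatty acid branch, with all genes at -0.30. 18 of 30 members were over 1.5-fold lower by RPKM, against 18.6% of all genes, and 8 after centring on the median of all genes. In junction reads 8 of 8 fatty acid, 5 of 5 regulator and 10 of 16 sterol members were below every DMSO library, against 33.6% of all genes. The 8 include Scd1, on 13 reads. Scd2 was lowest, at 136 against 394 RPKM and 503 against 1062 to 1128 junction RPM. Dhcr7 was at 157 against 261 to 293 and Srebf1 at 197 against 333 to 369, while Tm7sf2 was above DMSO, at 19.3 against 8.57 to 9.54.

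The ChemBridge compound was low in both branches, with a median of -0.56 for the sterol branch, -0.42 for the fatty acid branch and -0.06 for all genes. 12 of 30 members were over 1.5-fold lower by RPKM, 8 of them sterol genes, against 5.58% of all genes, and 13 of 16 sterol, 4 of 5 regulator and 7 of 8 fatty acid members were below the DMSO libraries in junction reads, against 37.7%. Fdps was lowest, at 49.7 against 121 RPKM, followed by Mvd, at 17.9 against 37.7 RPKM and 62.8 against 110.2 to 122 junction RPM. Lss was at 127 against 201 to 209, while Cyp51 (247) lay inside its DMSO range and Insig2 was the highest member, at 22.7 against 18.9 RPKM.

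3 other compounds were lower in one branch or both. With all genes at -0.03, AW00693 had a fatty acid median of -0.47 and a sterol median of -0.22, with 9 of 30 members over 1.5-fold lower by RPKM, against 11% of all genes. Below every DMSO library in junction reads were 13 of 16 sterol and 7 of 8 fatty acid members, against 50%. Mvk was lowest, at 8.20 against 17.3 RPKM and 16.6 against 34.6 to 36.4 junction RPM, and Hmgcs1 highest, at 138 against 107 RPKM. JFD00822 had a fatty acid median of -0.40 and a sterol median of -0.23, with all genes at -0.12, and 5 of 30 members were over 1.5-fold lower, against 2.04% of all genes. In junction reads 8 of 8 fatty acid (Scd1 on 7 reads) and 10 of 16 sterol members were below the DMSO libraries, against 28.6%. Its lowest member was Scd2, at 203 against 394 RPKM and 626 against 1062 to 1128 junction RPM. 5-azacytidine was lower in the sterol branch (-0.37) than in the fatty acid branch (-0.24), with all genes at -0.02, and 3 of 30 members were over 1.5-fold lower, against 3.14% of all genes. In junction reads 14 of 16 sterol, 5 of 5 regulator and 6 of 8 fatty acid members were below the DMSO libraries, against 31%. With both compounds Insig2 was the highest member, at 19.8 RPKM with JFD00822 and 21.4 RPKM with 5-azacytidine. Elovl6 was the lowest member with 5-azacytidine, at 16.04 against 25.96 RPKM and 11.03 against 14.5 to 16.8 junction RPM.

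**Figure D5:**
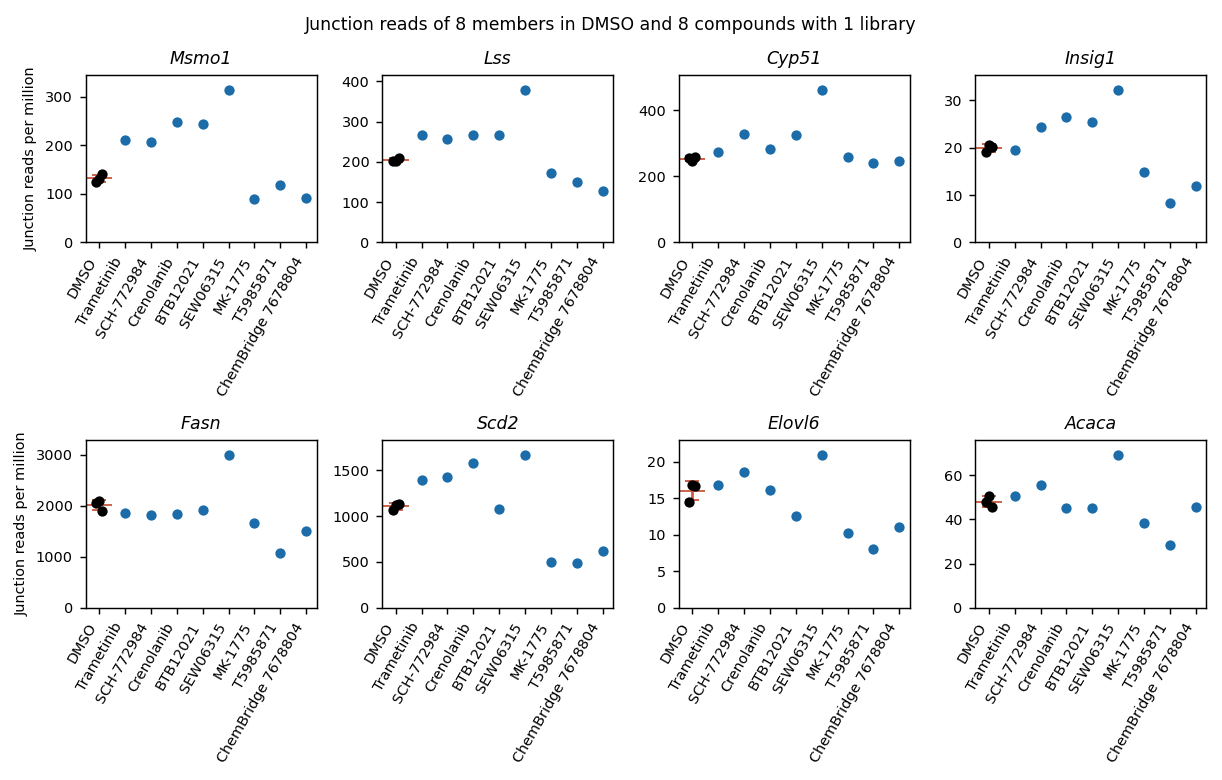
Junction RPM (y axes, from 0) of 8 members in the 3 DMSO libraries (black, mean and SD in red) and in 1 library of each of 8 compounds (blue). With SEW06315 all 8 members lie above DMSO, and with T5985871 all 8 lie below it.

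Members also differed in how far they moved over all 27 compounds. By log2 RPKM ratio Fasn spanned the widest range, from -2.27 with Vorinostat to 0.45 with SEW06315, followed by Msmo1, from -1.47 with CI-994 to 1.14 with SEW06315. Sc5d spanned the narrowest range, from -0.35 to 0.52, and passed 1.5-fold with no compound, and Srebf2 the next, from -0.59 to 0.30, with 1 compound past 1.5-fold. Mvk was over 1.5-fold lower with 10 compounds and higher with none, and Acat2, Nsdhl and Fasn were lower with 9 and higher with none. Insig2 was higher with 5 and lower with none. Hmgcs1 was higher with 6 and lower with 1. T5635931, T5758020 and T5963258 were among the compounds with a low Mvk, at 9.69, 10.1 and 11.3 against 17.3 RPKM and at 20.3, 20 and 22.2 against 34.6 to 36.4 junction RPM. For A-443654, RH01954, S02045 and SPB00858 no member passed 1.5-fold, and for BTB13120 Hsd17b7 did, at 46.9 against 28.9 RPKM. The share of all genes past 1.5-fold is not given for these compounds. Whether their members moved less than other genes was therefore not tested.

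A readout apart from the level is splicing within the members, given as percent spliced in (PSI, the share of transcripts with the exon). In the members, 178 alternative exons had enough reads in at least 2 DMSO libraries. Of these exons, 5 differed from DMSO by at least 10 points without overlap of the libraries in 4 or more compounds. The share of the alternative exons of all genes past these limits was not counted. Whether 5 of 178 is unusual was therefore not tested. The 2 exons described here were chosen after their values were seen. A 30-nt exon of Acly (chr11:100364474-100364503, mm9) was included at 76.7, 76.3 and 77.4% in DMSO. It was at 45.7% with A-443654, 56.1% with MK-1775, 61.0% with T5985871, 63.0% with JFD00822, 63.8 and 66.4% with Vorinostat and 66.1% with RDR00572, each below every DMSO library, and with CI-994, which raised Acly as Vorinostat did, at 74.9 and 78.0%. At least 3732 reads stood behind each of these values. A 197-nt exon of Tm7sf2 (chr19:6067123-6067319, mm9) was at 53.0 and 54.1% in the 2 DMSO libraries with enough reads, 93.1 and 90.3% with CI-994 and 87.8 and 90.9% with Vorinostat, and at 35.2% with MK-1775 and 35.8% with Trametinib, on 34 to 258 reads. It differed by 10 points or more in 12 of the 18 compounds with enough reads, higher in 8 and lower in 4. Its gene is one where the measures of expression disagreed with Vorinostat and BRD6688.

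Some members share sequence with other genes, between which the authors' counting could split reads. By alignment of transcripts at 90% identity or more over at least 200 bases, 8 members had such a partner in GENCODE vM21 apart from overlapping transcripts at their own locus: Fdps, Idi1, Fdft1, Elovl6 and Acaca have processed pseudogenes (Acaca over 64.3% of its transcript), Acat2 matches Acat3 (97.7% identity), and Scd1 matches Scd2 and Scd3 over part of its length. Fdps also shares 1124 exonic bases with Gm43738 on its own strand, so the values of these members, above all of Fdps and Acat2, are uncertain. The library kit did not keep the strand, so reads of a gene on the other strand are not separated: exons overlap there for Fdft1 (Ctsb, 774 bases), Hmgcs1, Idi1, Lss, Cyp51, Srebf1 and Elovl6. On the same strand Tm7sf2 shares 532 exonic bases with Vps51.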

How the data were processed

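Values come from 34 poly(A) RNA-seq libraries of N2A cells, grouped by the treatment in the labels. The members and the gene lists were chosen with earlier results of these data known. The authors deposited 1 merged RPKM per condition (per the paper, reads quantified by Salmon against GENCODE vM21 transcripts; GEO's processing notes name Salmon 0.10.2 and the paper another version of it). The paper gives 2 DMSO replicates and the labels 3, and which entered the merged value is not known here. Columns of the authors' own comparisons, with fold changes and p-values, were not used. The authors' vast-tools table (mm9, per the processing notes) gave percent spliced in and a quality field with read numbers per library for 401633 events. The exon-exon junction reads of 160022 intron events were summed over 16846 genes, scaled to each library's total (RPM), and log2(value + 1) was fitted with limma 3.58.1 (R 4.3.3, trend) for genes with a mean of at least 50 reads over 11 libraries. 0 columns were left without a condition.

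Log2 RPKM ratios used a pseudocount of 0.5, and the fold limit was 1.5 with more than 5 RPKM in either condition. Members named in full were the highest or lowest by RPKM in each of the 18 compounds with a branch median or difference past 0.3, and those called in 3 or 4 of the 4 HDAC inhibitor comparisons. Other genes came from fixed lists. 1 listed marker and the sum over its list are not reported here. Tested on simulated data, limma recovered 98.9 to 100% of 2-fold and 89.2 to 94.5% of 1.5-fold changes in the 4 comparisons, with 6 to 11 false calls in each. The replicates are separate samples per the labels, and the p-values measure the spread between them. Exons needed a coverage score of LOW or better. Alignments used BLAST+ 2.17.0. Alternatives were other scaling, filters, pseudocounts, voom weights, a replicate block, only the groups compared, each replicate left out, and for RPKM other pseudocounts, limits, centring and junction reads.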

Additional observations from a re-analysis of the deposited data

Results flagged for a closer look

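7 members differed between BRD4884 and BRD6688 in the test of the difference itself (limma, adjusted p under 0.05), 3 higher and 4 lower of 29 with BRD4884, against 21.8% and 12.3% of all genes. On the log2 scale of junction reads they were higher with BRD4884 by 0.43 for Pmvk, 0.22 for Lss and 0.38 for Msmo1, and the difference was -0.27 for Fasn, -0.32 for Scd2, -0.32 for Fads1 and -0.25 for Fads2. Over 7 alternative settings with all libraries, Fasn, Scd2 and Fads1 were called in 7, Msmo1 in 6, Pmvk and Fads2 in 5 and Lss in 3. With any 1 of the 4 libraries left out, 0 to 2 were higher and 0 to 1 lower.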

How the results depend on the processing

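Of the members' 73 calls against DMSO, 60 were called under each alternative that kept all libraries. The replicate letters did not pair the samples (correlations of their deviations -0.28 to 0.06), and the replicate block gave 1 member higher between BRD4884 and BRD6688 in place of 3 and moved no other member count by over 1.5 times. Members higher in that pair numbered 0 with no filter and 6 with only those libraries fitted. Median-of-ratios scaling gave 3 up and 13 down with BRD4884 in place of 6 and 8, and 4 up with BRD6688 in place of 9, and it turned Scd2 with BRD4884 to -0.22. Fitting BRD4884 and DMSO alone gave 11 up. With each replicate left out, members higher and lower in the pair numbered 0 to 2 and 0 to 1, up with BRD4884 4 to 6 and down 6 to 8, up with BRD6688 5 to 9 and down 6 to 8, up with CI-994 6 to 7 and down 11 to 13, and up with Vorinostat 6 to 7 and down 14 to 17. The lone library left in a group was then taken to vary like the others.

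The difference of the branch medians by junction reads was 0.26 for Vorinostat, -0.28 for CI-994, -0.18 for BRD6688, 0.084 for BRD4884, 0.040 for A-443654, 0.63 for Crenolanib, 0.39 for BTBS00065, 0.15 for AW00693 and 0.65 for T5985871. A pseudocount of 0.1 gave 0.29 for MK-1775, 0.31 for AW00693, 0.25 for JFD00822 and 0.62 for T5985871. The causes of these shifts were not tested. Centring on the median of all genes took the members over 1.5-fold lower from 16 to 11 with Vorinostat and from 17 to 7 with CI-994. With BRD6688 it took them from 7 to 3 and with BRD4884 from 7 to 2. Those higher with SEW06315 went from 9 to 17. Low depth limits Scd1 most, and 1 library per compound leaves the other 23 without an error.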
